A study of Arabidopsis thaliana with 12 samples.

Results

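The GASA genes (gibberellic acid-stimulated in Arabidopsis) encode small secreted peptides, and 5 of them were followed here through every library of a leaf RNA-seq experiment in strong light: GASA1 (AT1G75750), GASA4 (AT5G15230), GASA5 (AT3G02885), GASA6 (AT1G74670) and GASA14 (AT5G14920). They were taken by locus identifier from the 32833 genes of the deposited table, with their values in all 12 libraries in view, so their levels and fold changes are given as a description without a test. All 5 passed the filter on low values that left 17585 genes. RNA came from leaves of Arabidopsis thaliana in 4 groups of 3 biological replicates: the mutant tpt-2 with a treatment time of 18 h in strong light, the accession Col-0 with 18 h, tpt-2 with 9 h and Col-0 with 9 h. The mutant carries a lesion in TPT, the chloroplast inner envelope translocator that passes triose phosphate to the cytosol and takes up phosphate. All plants, Col-0 included, were soil-grown, 21 d of age and used to a 10 h day, and at the end of a night they were moved to light of 500 µmol photons m-2 s-1, so the 18 h harvest fell later than the close of their usual day. The labels do not say whether the light was unbroken up to the 18 h harvest, which bears on every 18 h value. No library was made before the shift, so a genotype difference that was already present cannot be told apart from one that arose in strong light, nor can time in strong light from time of day.

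Gibberellins are growth hormones that act through the GID1 receptors. A receptor with bound hormone recruits the DELLA proteins, repressors of growth, for destruction through the F-box protein SLY1. GASA genes are known as a downstream layer of this pathway: several are induced by gibberellin, others are held down by it, and their products are exported into the cell wall space, where they affect cell expansion, germination, flowering and redox state. Each product has a signal peptide at its start and a cysteine-rich domain at its end, which gives the family its name in annotations.

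The cysteine-rich ends were read from the RefSeq TAIR10.1 genome to check the family label. The last 180 coding bases, 60 codons, of each gene are shown 5′ to 3′ on the coding strand with the stop codon left off, introns removed and the cysteine codons in capitals. They span chr1:28441816-28442077 (minus strand) for GASA1, chr5:4945473-4946022 (plus) for GASA4, chr3:638326-638740 (minus) for GASA5, chr1:28053631-28053890 (plus) for GASA6 and chr5:4827579-4827758 (plus) for GASA14.
GASA1: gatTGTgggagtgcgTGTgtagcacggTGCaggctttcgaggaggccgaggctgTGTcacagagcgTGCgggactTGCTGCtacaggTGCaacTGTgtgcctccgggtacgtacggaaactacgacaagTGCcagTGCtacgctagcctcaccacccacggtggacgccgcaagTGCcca
GASA4: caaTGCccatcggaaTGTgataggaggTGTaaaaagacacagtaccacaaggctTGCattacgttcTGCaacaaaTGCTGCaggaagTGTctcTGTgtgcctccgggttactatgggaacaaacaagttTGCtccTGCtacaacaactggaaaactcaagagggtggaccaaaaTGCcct
GASA5: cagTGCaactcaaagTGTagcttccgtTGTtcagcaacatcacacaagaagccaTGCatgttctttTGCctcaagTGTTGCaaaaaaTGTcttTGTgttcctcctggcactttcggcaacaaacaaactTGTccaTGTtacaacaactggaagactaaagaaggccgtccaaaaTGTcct
GASA6: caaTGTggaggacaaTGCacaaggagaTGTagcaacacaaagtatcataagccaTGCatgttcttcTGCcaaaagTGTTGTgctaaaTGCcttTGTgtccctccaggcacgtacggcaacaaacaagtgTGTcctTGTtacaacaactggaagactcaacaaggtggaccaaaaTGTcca
GASA14: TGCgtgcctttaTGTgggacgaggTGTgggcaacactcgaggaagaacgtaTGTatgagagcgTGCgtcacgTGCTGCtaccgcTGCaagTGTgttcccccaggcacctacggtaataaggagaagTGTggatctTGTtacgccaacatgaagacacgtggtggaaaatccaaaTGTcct
All 5 ends hold 12 cysteine codons, as do the ends of the 10 other family genes (15 of 15). The spacing of the 12 is the same in GASA1, GASA4, GASA5 and GASA6 and in 12 of the 15 genes, while GASA14 has 1 more codon between its 10th and 11th cysteine codons. GASA5 and GASA6 shared 71.1% of these bases, GASA4 and GASA6 70.6%, and GASA4 and GASA5 65.0%. GASA1 shared 45.0 to 48.9% with those 3. GASA14 stood apart in its length, 275 codons against 97 to 106 in the other members, and in its proline content, with 81 proline codons (29.5%) against 4.08 to 7.92%.

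In TPT level the libraries fitted their genotype labels, while the time labels had no such check. TPT had 2.52 to 3.85 FPKM (fragments per 1000 bases of transcript and per 1000000 fragments) in the 6 tpt-2 libraries and 328 to 465 FPKM in the 6 Col-0 libraries, a log2 fold change of -6.80 at 18 h and -6.59 at 9 h (limma, Benjamini-Hochberg adjusted p 3.91e-11 and 5.64e-11). Depth, recovered from the steps between low FPKM values, was 12.3 to 14.3 M fragments (M is 1000000) in 11 libraries and 25.7 M in Col-0 18 h replicate 1. Leaf mesophyll transcripts (7 genes, such as RBCS1A) summed to 35385 to 52241 FPKM per library. Flower markers stayed at or below 0.312 FPKM in sum with AP1 at 0 in all 12, seed markers exceeded 0.1 FPKM only in Col-0 18 h replicate 2 (5.63 FPKM), and 4 of 5 root markers stayed below 1 FPKM, the exception being PYK10, which made up nearly all of a root marker sum of 148 to 350 FPKM. Some markers were called by limma, mostly over time. At 18 h against 9 h, 2 of 7 mesophyll markers were called higher in tpt-2, against 12.1% of all genes tested. In Col-0 5 of 7 were, against 13.1%, with PYK10 and 1 of 2 tested shoot meristem markers (KNAT1). Between the genotypes, 0 of 7 mesophyll markers were called at 18 h, against 2.88% of all genes (1 had an unadjusted p under 0.05). All 7 had a log2 fold change below 0 in tpt-2 at 18 h, with a median of -0.145 beside 0.09 over all genes. At 9 h 1 of 7, CA1, was called higher in tpt-2, against 13.6% called higher (5 had an unadjusted p under 0.05). The part of these markers in the GASA values was not tested. The shoot meristem genes STM and KNAT1 were above 1 FPKM in every library, and CLV3 reached at most 0.374 FPKM. None of 6 cell division genes was called in any comparison by limma, with 1 at an unadjusted p under 0.05 at 9 h, 1 over time in Col-0 and 0 in the others. As in any bulk tissue, fewer cells of a type and less RNA per cell cannot be told apart.

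GASA6 showed the widest genotype difference of the 5 by ratio of means and by log2 fold change. At 9 h its ratio of 12.1 lies within the counting interval of GASA5, which rests on few fragments. The GASA5 ratio of Col-0 to tpt-2 was 8.02 (95% exact interval 3.16 to 26.1), so the order of these 2 at 9 h is not settled. GASA6 encodes a peptide known to promote seed germination through cell elongation, and it lies on chromosome 1, 28053030 to 28054149, plus strand. After 18 h it had 3.58, 10.95 and 18.4 FPKM in tpt-2, against 1.75, 2.11 and 1.15 FPKM in Col-0. After 9 h it had 41.3, 37.4 and 34.3 FPKM in tpt-2, against 4.56, 2.85 and 1.90 FPKM in Col-0. All tpt-2 libraries lay above all Col-0 libraries of the same time. The ratio of the means was 6.56 at 18 h and 12.1 at 9 h, and the log2 fold change, on the log2(FPKM + 1) scale as throughout, was 1.95 and 3.28 (SE 0.408 each). The added 1 FPKM compresses the log2 fold changes of GASA6, since Col-0 had only 1.15 to 4.56 FPKM. The 3 tpt-2 libraries at 18 h were spread more widely (SD 7.40 around 10.97 FPKM) than those at 9 h (SD 3.53 around 37.6 FPKM). Over time, tpt-2 had 3.43 times less GASA6 transcript at 18 h than at 9 h (log2 fold change -1.92), with no overlap. In Col-0 the 18 h and 9 h values overlapped (-0.58). In the order of mean levels, tpt-2 18 h, Col-0 9 h and Col-0 18 h each overlapped with the next, and only tpt-2 9 h stood clear. On the opposite strand, exons of AT1G74675 cover 22.6% of the GASA6 exon bases, and AT1G74675 itself was listed at no more than 0.275 FPKM.

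GASA1 was higher in tpt-2 and higher at the later time. The gene, on chromosome 1, 28441501 to 28442435, minus strand, belongs to the first family members described in Arabidopsis by their likeness to a gibberellin-induced tomato gene. After 18 h GASA1 had 242.9, 391.5 and 337.0 FPKM in tpt-2, against 163.9, 106.8 and 84.5 FPKM in Col-0. After 9 h it had 125.0, 114.2 and 44.0 FPKM in tpt-2, against 31.3, 20.1 and 34.4 FPKM in Col-0. Every tpt-2 library exceeded every Col-0 library of its time, although tpt-2 9 h replicate 3 lay close to the Col-0 values. GASA1 averaged 324 ± 75.2 FPKM in tpt-2 and 118 ± 41.0 FPKM in Col-0 at 18 h, and 94.4 ± 44.0 FPKM in tpt-2 and 28.6 ± 7.47 FPKM in Col-0 at 9 h (SD, n = 3 each). In this order of mean levels, only Col-0 18 h and tpt-2 9 h overlapped as neighbours. Log2 fold changes between the genotypes were 1.47 at 18 h and 1.59 at 9 h (SE 0.370 each). Those of 18 h against 9 h were 1.88 in tpt-2 and 1.99 in Col-0, so the 2 genotype effects differed by -0.12 (SE 0.523), a difference that ran from -0.59 to 0.15 with 1 library left out. Several marker sets were lowest of the tpt-2 9 h libraries in replicate 3, as GASA1 was. STM, KNAT1 and CLV3 summed to 5.95, 7.41 and 2.40 FPKM in tpt-2 replicates 1, 2 and 3 at 9 h, against 3.29, 3.92 and 2.69 FPKM in Col-0. In the same tpt-2 libraries mesophyll markers summed to 39196.3, 42832.9 and 37390.5 FPKM, and root markers to 271, 233 and 172 FPKM. Cell division genes did not follow (88.7, 67.2 and 75.2 FPKM). At 18 h the shoot meristem sum was 4.46 to 4.77 FPKM in tpt-2 and 5.13 to 5.88 FPKM in Col-0. The part of these markers in the GASA1 values was not tested. Without tpt-2 9 h replicate 3, the 9 h log2 fold change of GASA1 was 2.06.

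**Figure D1:**
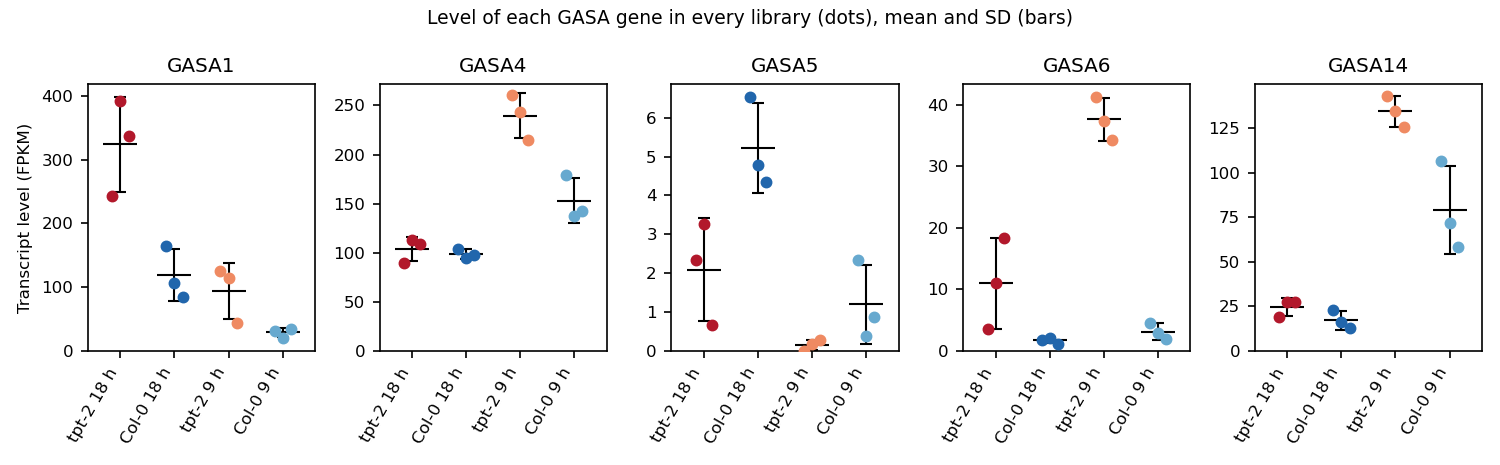
Transcript level in FPKM (vertical axes, each gene on its own scale) of GASA1, GASA4, GASA5, GASA6 and GASA14 in tpt-2 18 h, Col-0 18 h, tpt-2 9 h and Col-0 9 h. Dots are libraries, and bars are the mean and SD of 3. GASA6 in tpt-2 at 9 h sits at 34.3 to 41.3 FPKM, apart from the other 9 libraries, while GASA5 has its highest values in Col-0 at 18 h.

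GASA4 and GASA14 had similar profiles, with high levels at 9 h and low levels at 18 h. GASA4 is known as a gibberellin-induced gene of growing tissues that promotes flowering, and GASA14 as a promoter of leaf expansion that limits reactive oxygen species. They lie on chromosome 5 at 4944816 to 4946299 and at 4826141 to 4828384, both on the plus strand. After 18 h GASA4 had 89.4, 112.7 and 109.1 FPKM in tpt-2, against 103.9, 94.1 and 97.1 FPKM in Col-0. After 9 h it had 260.9, 243.1 and 215.3 FPKM in tpt-2, against 179.4, 137.0 and 142.5 FPKM in Col-0. The genotypes were separate at 9 h and overlapped at 18 h. GASA14 had 18.7, 27.2 and 27.4 FPKM in tpt-2 after 18 h, against 22.6, 16.03 and 12.5 FPKM in Col-0. After 9 h it had 143.1, 134.7 and 125.9 FPKM in tpt-2, against 106.7, 72.1 and 58.4 FPKM in Col-0. Again the genotypes were separate at 9 h and overlapped at 18 h.

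The genotype effect on GASA4 was 0.07 at 18 h and 0.65 at 9 h (SE 0.117 each), and that on GASA14 was 0.51 and 0.80 (SE 0.232 each). Under median-ratio scaling the GASA4 value at 18 h turned to -0.03, so its sign is not settled. For GASA14 the time effect was larger in size than the genotype effect at either time. GASA14 was 5.50 times lower at 18 h than at 9 h in tpt-2 (log2 fold change -2.43) and 4.64 times lower in Col-0 (-2.14). GASA4 was 2.31 times lower in tpt-2 (-1.20) and 1.55 times lower in Col-0 (-0.62). For each gene the order of mean levels was tpt-2 9 h, Col-0 9 h, tpt-2 18 h and Col-0 18 h, and only the last 2 overlapped.

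GASA5 was lower in tpt-2 at both times and higher at 18 h than at 9 h. It is known as a negative regulator of gibberellin-promoted flowering and stem growth, and it lies on chromosome 3, 637921 to 639242, minus strand. After 18 h it had 2.34, 3.26 and 0.652 FPKM in tpt-2, against 6.53, 4.78 and 4.35 FPKM in Col-0. After 9 h it had 0, 0.168 and 0.273 FPKM in tpt-2, against 2.34, 0.388 and 0.865 FPKM in Col-0. All tpt-2 libraries lay below all Col-0 libraries of the same time, and the 18 h libraries lay above the 9 h libraries of the same genotype. The tpt-2 values at 18 h overlapped with the Col-0 values at 9 h.

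These GASA5 levels rest on few fragments: 24, 35 and 7 in tpt-2 and 140, 54 and 45 in Col-0 at 18 h, and 0, 2 and 3 in tpt-2 and 25, 4 and 10 in Col-0 at 9 h. The 0, among 12.7 M fragments, allows up to 3. Summed over a group and divided by depth, the ratio of tpt-2 to Col-0 was 0.375 at 18 h (95% exact interval 0.281 to 0.494) and 0.125 at 9 h (0.0384 to 0.317). The ratio of 18 h to 9 h was 13.9 in tpt-2 (5.68 to 44.3) and 4.63 in Col-0 (3.29 to 6.68). Such intervals cover counting error only. Log2 fold changes, which the added 1 FPKM compresses at these levels, were -1.10 between the genotypes at 18 h, -0.85 at 9 h, 1.33 over time in tpt-2 and 1.58 over time in Col-0 (SE 0.359 each). With 0.1 FPKM added in place of 1, the last 3 of these were -2.28, 3.09 and 2.32, and the difference between the genotype effects was 0.77 in place of -0.26, so its sign is not settled.

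**Figure D2:**
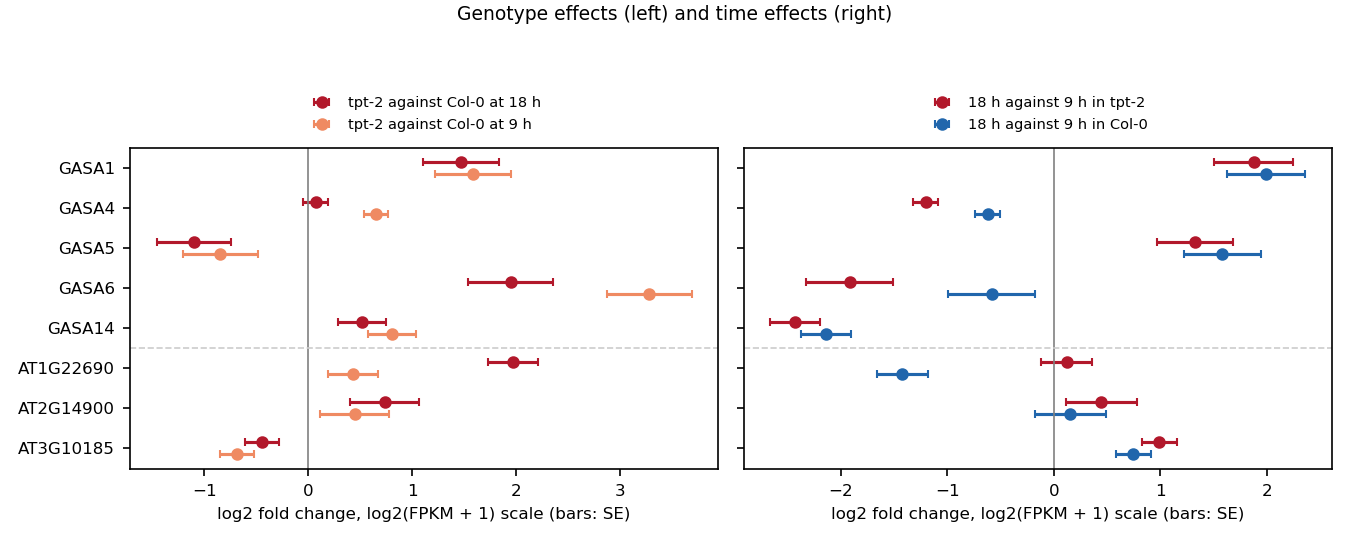
Log2 fold changes on the log2(FPKM + 1) scale (horizontal axes, bars are SE) of the 5 GASA genes above the dashed line and of 3 other family genes below it. On the left are tpt-2 against Col-0 at 18 h and at 9 h, on the right 18 h against 9 h in tpt-2 and in Col-0. GASA1 and GASA6 lie right of 0 on the left panel, and GASA5 left of it, at both times.

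The counts of called genes (limma, adjusted p under 0.05) are given beside those of the whole table, and since the 5 were picked on these libraries nothing is read from them. At 18 h 1 of 5, GASA6, was called against 2.88% of all genes tested (2% higher and 0.881% lower in tpt-2). At that time 3 of 5 had groups that did not overlap, 2 higher and 1 lower in tpt-2, against 29.0% (22.1% higher and 6.86% lower). GASA1 at 18 h was not called, but it was with a filter of at least 5 FPKM or with only the 6 libraries compared. The GASA6 call was lost in 8 of 13 alternative settings, among them the removal of any Col-0 18 h library, or of tpt-2 replicate 2 or 3 at 18 h. At 9 h 4 of 5, all higher in tpt-2, were called against 22.3% (13.6% higher and 8.72% lower). The groups did not overlap in 5 of 5, 4 higher and 1 lower, against 37.8% (23.9% higher and 13.9% lower). GASA5, the member not called at 9 h, was called with 0.1 FPKM added. The call of GASA14 at 9 h was lost in 5 of 13 settings, including the removal of Col-0 replicate 2 or 3 or tpt-2 replicate 1 or 2 of that time. Between 18 h and 9 h, 5 of 5 were called in tpt-2 (2 higher and 3 lower at 18 h) against 23.4% (12.1% higher and 11.3% lower). The same 5 did not overlap, against 38.0% (18.8% higher and 19.3% lower). In Col-0 4 of 5 were called over time (2 higher, 2 lower) against 28.7% (13.1% higher and 15.5% lower). The same 4 did not overlap, against 43.6% (20.1% higher and 23.5% lower). The call of GASA5 over time in tpt-2 was lost without tpt-2 18 h replicate 1 or 2 or tpt-2 9 h replicate 1. For the difference between the genotype effects at the 2 times, 0 of 5 were called against 4.78% (2.43% higher and 2.35% lower), with 2 of 5 at an unadjusted p under 0.05. Its values were -0.12 for GASA1, -0.58 for GASA4, -0.26 for GASA5, -1.33 for GASA6 and -0.29 for GASA14. The GASA4 value passed without Col-0 9 h replicate 1, and the GASA6 value without tpt-2 18 h replicate 3. Median log2 fold changes of the 5 were 0.51 at 18 h and 0.80 at 9 h between the genotypes, with 0.09 and 0.07 over all genes. The genotype comparisons and the time comparisons share libraries.

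The scale of the whole table bears on these shares. With the values as deposited, the 18 h calls split into 352 higher and 155 lower in tpt-2, against 175 and 323 under median-ratio scaling and 152 and 220 under quantile normalization, which moved the median of all genes by -0.11. At 9 h the split was 2383 higher and 1534 lower as deposited, 1518 and 2244 under median-ratio scaling, and 1642 and 1807 under quantile normalization. For the difference between the effects it was 427 and 414 as deposited and 315 and 465 under quantile normalization.

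Summed over the family, transcript levels differed between the genotypes more than between the times. All 15 GASA genes together had 555 ± 101 FPKM in tpt-2 and 292 ± 58.2 FPKM in Col-0 at 18 h, and 576 ± 81.4 FPKM in tpt-2 and 327 ± 55.2 FPKM in Col-0 at 9 h (SD, n = 3 each). The sum was thus similar at both times within a genotype, while its make-up was not. GASA1 made up 58.0% of it in tpt-2 and 39.8% in Col-0 at 18 h, against 15.8% in tpt-2 and 8.76% in Col-0 at 9 h. GASA14 made up 4.39% in tpt-2 and 5.76% in Col-0 at 18 h, against 23.5% in tpt-2 and 23.9% in Col-0 at 9 h. GASA4 made up 18.9% in tpt-2 and 34.3% in Col-0 at 18 h, against 41.8% in tpt-2 and 46.8% in Col-0 at 9 h. The largest contributor was therefore GASA1 in tpt-2 at 18 h and GASA4 in either genotype at 9 h, and in Col-0 at 18 h their shares were close (39.8% and 34.3%). GASA6 reached 6.57% in tpt-2 at 9 h and stayed between 0.578 and 1.87% in the means of the other groups. GASA5 held at most 1.82% in any library. FPKM is per length, so these are shares of transcripts and not of fragments.

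**Figure D3:**
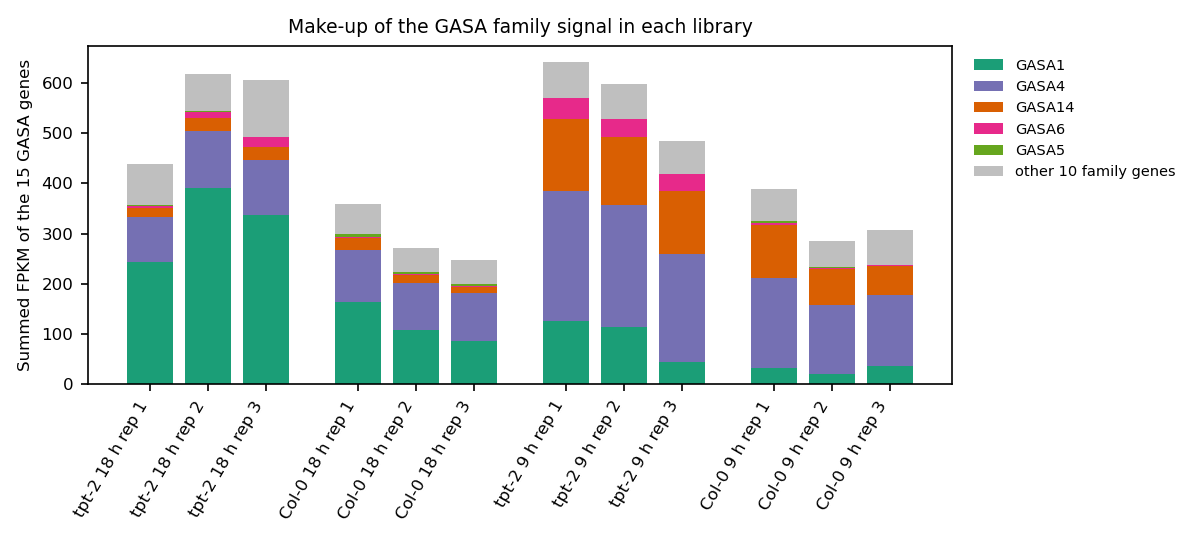
Summed FPKM of the 15 GASA family genes (vertical axis) in each of the 12 libraries, stacked by gene, with the 10 family genes outside the 5 in grey. The sum runs from 247 to 643 FPKM. GASA1 fills most of the tpt-2 18 h bars (55.4 to 63.2%), and GASA4 with GASA14 most of the 9 h bars.

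Across the 12 libraries the profiles of the 5 fell into unlike shapes. Pearson's r of log2(FPKM + 1), which mixes group and replicate differences and is given as a description, was 0.960 between GASA4 and GASA14, 0.743 between GASA4 and GASA6 and 0.661 between GASA6 and GASA14. GASA5 was negatively related to these 3 (-0.798 to GASA14, -0.767 to GASA4 and -0.728 to GASA6). GASA1 followed none of them closely, with r from -0.494 to 0.286. Among 17584 other genes, those most like GASA6 were AT1G27210 (0.975), AT4G08540 (0.971) and the receptor-like kinase gene TMK1 (0.968). Most like GASA14 were the beta-tubulin gene TUB5 (0.987), AT5G01750 (0.986) and PIF4 (0.985), a bHLH regulator of growth in light and warmth. GASA4 was followed most closely by AT2G15880 (0.987), AT3G42800 (0.984) and AT4G05150 (0.983). For GASA1 the list was PGRL1B (0.980), AT3G02300 (0.974) and the phytochrome gene PHYE (0.973), and for GASA5 it was AT3G61200 (0.957), the chloroplast import gene TIC21 (0.930) and the auxin response repressor gene AXR3 (0.929).

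The promoters of GASA4 and GASA14, the pair with the most similar profiles, and of GASA5, which ran against them, are shown for the 250 bases before the annotated start in TAIR10.1, 5′ to 3′ on the gene's strand, so that the letters can be compared. Positions are chr5:4944566-4944815 on the plus strand for GASA4, chr5:4825891-4826140 on the plus strand for GASA14 and chr3:639243-639492 on the minus strand for GASA5. Capitals mark TATAAA, the letters of the box that positions the transcription machinery in many promoters, or ACGTGG, a core of abscisic acid response elements, on either strand.
GASA4: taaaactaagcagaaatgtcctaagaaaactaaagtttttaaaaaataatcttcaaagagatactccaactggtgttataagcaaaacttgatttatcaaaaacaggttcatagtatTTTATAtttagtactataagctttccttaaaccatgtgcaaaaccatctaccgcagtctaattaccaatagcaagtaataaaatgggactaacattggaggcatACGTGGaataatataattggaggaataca
GASA14: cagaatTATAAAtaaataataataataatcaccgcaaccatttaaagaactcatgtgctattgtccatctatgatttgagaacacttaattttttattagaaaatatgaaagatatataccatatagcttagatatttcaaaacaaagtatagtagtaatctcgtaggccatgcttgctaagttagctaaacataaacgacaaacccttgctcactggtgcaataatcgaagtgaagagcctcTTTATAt
GASA5: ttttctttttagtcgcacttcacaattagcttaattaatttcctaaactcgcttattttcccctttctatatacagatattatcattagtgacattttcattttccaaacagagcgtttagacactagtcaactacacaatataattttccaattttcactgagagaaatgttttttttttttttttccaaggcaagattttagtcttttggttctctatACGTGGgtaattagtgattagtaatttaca
ACGTGG lay 29 to 24 bases before the start of GASA4 and 30 to 25 bases before that of GASA5, and was found in 2 of the 5 promoters against 8.23% of 27443 promoters. TATAAA was found in 3 of 5 (GASA1, GASA4 and GASA14) against 47.3%. In GASA4 it lay 133 to 128 bases before the start on the opposite strand. In GASA14 it lay 244 to 239 bases before the start on the gene's strand and 7 to 2 bases before it on the opposite strand. Whether any of these acts as such a box was not tested. Both TATAAA and ACGTGG were picked after the letters had been read. TAACAAA, a gibberellin response element of cereal promoters, was in none of the 5 against 16.1% of promoters, and neither was the G-box CACGTG (6.49%), which shares 5 letters with ACGTGG, the evening element AAAATATCT (2.36%), the sugar-responsive TATCCA (13.6%) or the light-responsive GATAAG (12.3%), each searched on both strands. Of the 10 other family promoters, 3 held TAACAAA, that of the family gene AT1G22690 among them. GATAAG was in 2 of these 10, TATCCA in 1, ACGTGG in 1 and TATAAA in 6, and CACGTG and AAAATATCT were in none. A match is no site of binding, and a missing match says only that the letters are not in this window.

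Of the 10 family genes outside the 5, 3 passed the filter on low values. AT1G22690 had 52.5, 44.2 and 74.8 FPKM in tpt-2 at 18 h, against 19.6, 12.1 and 10.3 FPKM in Col-0. At 9 h it had 52.3, 52.7 and 48.9 FPKM in tpt-2, against 43.0, 28.2 and 44.7 FPKM in Col-0. Its tpt-2 libraries thus kept a like level at both times, and Col-0 libraries were low at 18 h. By limma with Benjamini-Hochberg adjustment the genotype effect passed at 18 h (1.97, SE 0.239, adjusted p 0.00161) and not at 9 h (0.43, adjusted p 0.224), and the time effect passed in Col-0 (-1.42, adjusted p 0.000984) and not in tpt-2 (0.12, adjusted p 0.770). The difference between the genotype effects was 1.54 (limma, Benjamini-Hochberg adjusted p 0.0276), and it no longer passed in 6 of 18 alternatives (adjusted p 0.0188 to 0.075): without Col-0 18 h replicate 2 or 3, Col-0 9 h replicate 1, tpt-2 18 h replicate 1, or tpt-2 9 h replicate 1 or 2.

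AT3G10185 resembled GASA5 in direction. It had 21.6, 17.5 and 29.7 FPKM in tpt-2 at 18 h, against 32.4, 30.8 and 29.7 FPKM in Col-0. At 9 h it had 11.7, 10.099 and 10.7 FPKM in tpt-2, against 17.0, 22.1 and 15.6 FPKM in Col-0. Its transcript was less abundant in tpt-2 at 9 h (-0.69 on the log2 scale, adjusted p 0.0118 by limma) and more abundant at 18 h than at 9 h in tpt-2 (0.99, 0.00111) and in Col-0 (0.75, 0.00513). At 18 h the genotype effect did not pass (-0.45, adjusted p 0.151), but it did once the third tpt-2 library at 18 h was removed (-0.64, 0.0385, with adjusted p of 0.0385 to 0.394 over 13 alternatives). The opposite-strand gene AT3G10180 covers 30.6% of the AT3G10185 exon bases and had 0.883 to 2.15 FPKM, and whether the counting kept the strands apart is not given in the sources used here. AT2G14900 did not pass at 18 h (0.74, limma adjusted p 0.234) or at 9 h (0.45, 0.366). The other 7 genes, GASA2 and GASA3 among them, reached at most 1.15 FPKM in any library, and 3 were listed at 0 in all 12.

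Of the 24 tested genes in 3 gibberellin lists (synthesis, inactivation, reception and signalling), none was called between the genotypes at 18 h and 3 (12.5%) at 9 h, against 2.88% and 22.3% of all genes. Over time 4 (16.7%) were called in tpt-2 and 7 (29.2%) in Col-0, against 23.4% and 28.7% of all genes. Of 14 synthesis genes 7 were tested. None passed at 18 h, with 2 at an unadjusted p under 0.05. At 9 h GA3, the ent-kaurene oxidase gene, was higher in tpt-2 with 12.5, 12.04 and 9.29 FPKM, against 8.47, 5.53 and 8.49 FPKM in Col-0 (0.54, limma adjusted p 0.0354), and this call was lost in 8 of 13 alternatives (adjusted p 0.0205 to 0.124), among them without Col-0 9 h replicate 2 or tpt-2 9 h replicate 1 or 2. GA3OX1, which makes the bioactive hormone, was higher at 18 h than at 9 h in tpt-2 (0.96, limma adjusted p 0.0216) and in Col-0 (0.77, 0.0473). GA3OX1 in tpt-2 did not pass in 4 of 12 alternatives (0.000812 to 0.0888), without tpt-2 18 h replicate 1 or tpt-2 9 h replicate 1 or 2 among them, and in Col-0 it did not pass in 10 of 12 (0.00446 to 0.127), including each of the 6 that left out a Col-0 library. In Col-0 GA3OX2 was also higher (0.64, limma adjusted p 0.0266, lost without Col-0 18 h replicate 1 or 2 or Col-0 9 h replicate 3) and GA2, the ent-kaurene synthase gene, lower (-0.55, limma adjusted p 0.0185, lost without replicate 1 or 2 of either time). Of 9 inactivation genes 4 were tested, and none passed limma's threshold in any comparison, with 2 at an unadjusted p under 0.05 at 18 h and 0 in the others.

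Among the 13 tested of 14 receptor and signalling genes 2 DELLA genes, RGA and RGL2, moved in opposite directions at 9 h. At 9 h RGA was higher in tpt-2 (36.8, 34.9 and 27.8 FPKM, against 24.2, 21.8 and 21.1 FPKM in Col-0; log2 fold change 0.54, limma adjusted p 0.0103). RGL2, best known for its role in germination, was lower (1.94, 1.75 and 1.74 FPKM in tpt-2, against 2.87, 3.39 and 3.96 FPKM in Col-0; -0.64, limma adjusted p 0.00202). At 18 h RGL2 had 5.97, 5.71 and 6.38 FPKM in tpt-2, against 4.49, 4.43 and 4.74 FPKM in Col-0, which did not pass (0.34, limma adjusted p 0.113). The genotype effects on RGL2 differed between the times by 0.98 (limma adjusted p 0.00785), which passed in each of 17 alternatives (0.00671 to 0.0292). At 18 h none of the 13 passed, with 7 at an unadjusted p under 0.05, and their median was 0.32 beside 0.09 over all genes. The 3 receptor genes GID1A, GID1B and GID1C passed in no comparison. GAI, another DELLA gene, was lower at 18 h than at 9 h in tpt-2 (-0.51, limma adjusted p 0.0246) and in Col-0 (-0.75, 0.0024), and the tpt-2 call was lost without tpt-2 18 h replicate 1 or tpt-2 9 h replicate 1 (0.101 and 0.0977). SCL3, a GRAS gene that acts against DELLA proteins, was higher at 18 h in tpt-2 (1.18, limma adjusted p 0.000379) and in Col-0 (0.69, 0.00892). RGL2 was higher at 18 h in tpt-2 (1.32, limma adjusted p 6.78e-06) and in Col-0 (0.34, 0.0361), and the O-GlcNAc transferase gene SEC in Col-0 (0.24, 0.0417). The Col-0 calls were lost in 8 of 12 alternatives for RGL2 (0.0171 to 0.133), without Col-0 18 h replicate 1, 2 or 3 or Col-0 9 h replicate 1 or 2 among them, and in 6 of 13 for SEC (0.0175 to 0.132), without Col-0 18 h replicate 1, 2 or 3 or Col-0 9 h replicate 1 or 3 among them.

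**Figure D4:**
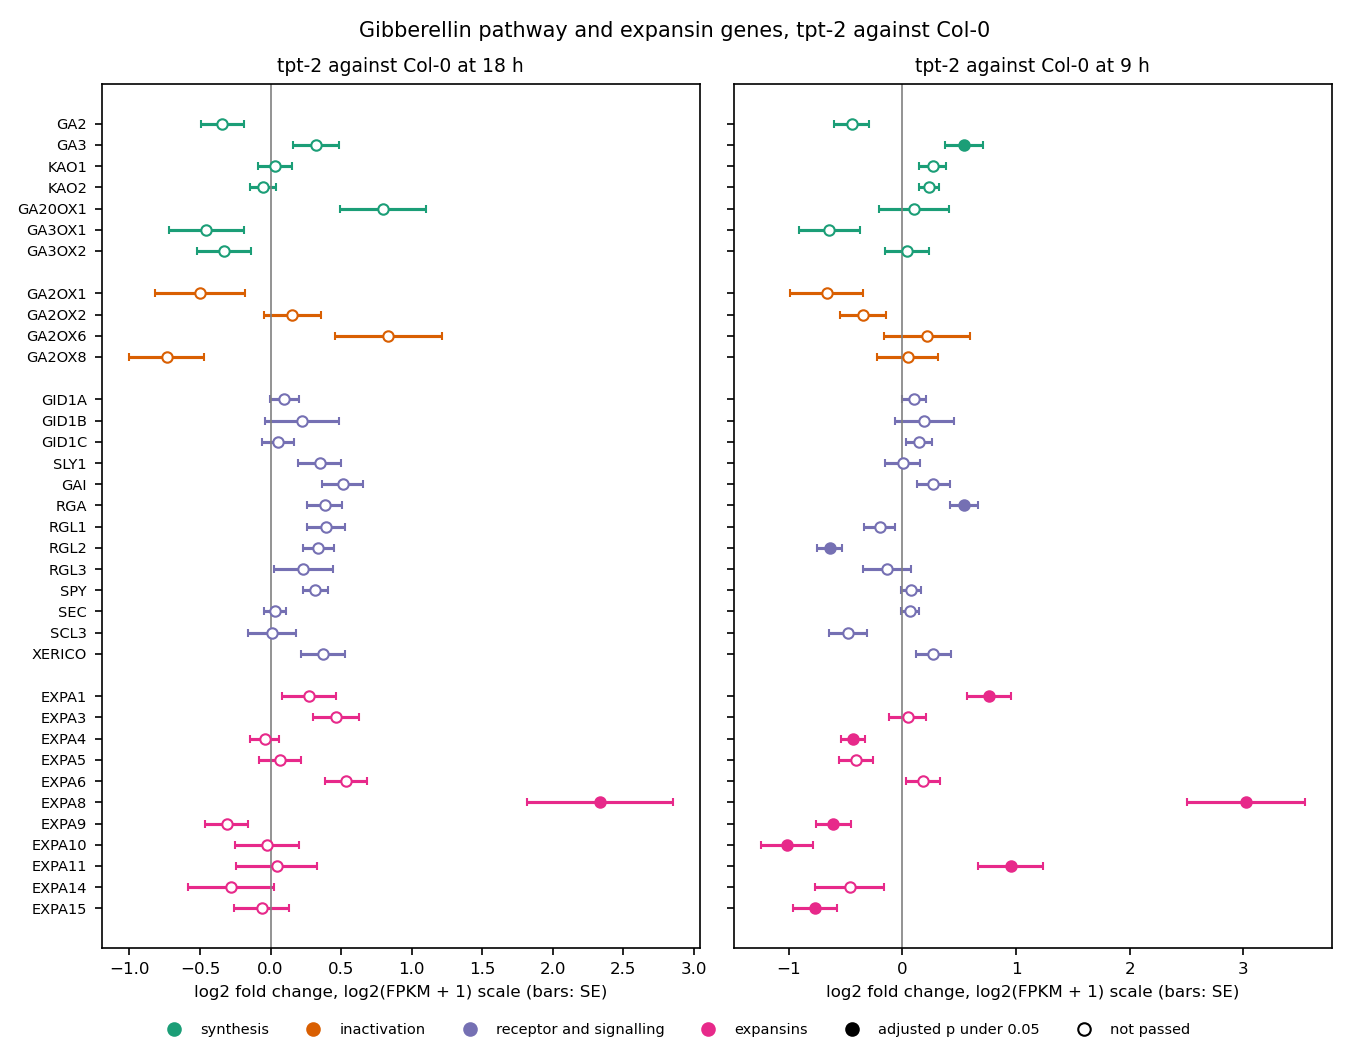
Log2 fold changes on the log2(FPKM + 1) scale (horizontal axes, bars are SE) of tpt-2 against Col-0 at 18 h (left) and 9 h (right) for the tested genes of gibberellin synthesis, inactivation, reception and signalling and for 11 expansins. Filled points passed limma's threshold. EXPA8 is the only filled point on the left, and RGA and RGL2 are the filled signalling genes on the right.

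Alpha-expansins, proteins that loosen cell walls during growth, were examined because GASA6 is known to act with EXPA1 in germination. All 11 listed were tested. At 18 h 1 was called higher and 0 lower in tpt-2, against 2% and 0.881% of all genes. At 9 h 3 were called higher and 4 lower, against 13.6% and 8.72%. Over time 2 were called higher and 3 lower at 18 h in tpt-2, against 12.1% and 11.3%. In Col-0 it was 1 higher and 2 lower, against 13.1% and 15.5%. EXPA8 had 2.70, 8.23 and 19.4 FPKM in tpt-2 at 18 h, against 1.35, 0.446 and 0.609 FPKM in Col-0. At 9 h it had 55.8, 44.2 and 38.3 FPKM in tpt-2, against 9.39, 3.91 and 2.67 FPKM in Col-0. The order of the tpt-2 libraries at 18 h was that of GASA6, lowest in replicate 1 and highest in replicate 3. EXPA8 ranked number 5 among 17584 genes in likeness to GASA6 (r 0.966 over 12 libraries). No other expansin was ranked, EXPA1 included, so the rank is a description only. EXPA1 averaged 107 FPKM in tpt-2 and 85.7 FPKM in Col-0 at 18 h, and 115 FPKM in tpt-2 and 67.3 FPKM in Col-0 at 9 h. EXPA8 was higher in tpt-2 at 9 h (3.02, SE 0.518, limma adjusted p 0.00204) and at 18 h (2.33, 0.0375), and the 18 h call was lost in 9 of 13 alternatives (0.00852 to 0.14), among them without any Col-0 18 h library or without tpt-2 18 h replicate 2 or 3. Also higher at 9 h were EXPA11 (0.95, limma adjusted p 0.0345) and EXPA1 (0.76, 0.0159), and the EXPA11 call was lost in 8 of 13 alternatives (0.0141 to 0.111), among them without Col-0 9 h replicate 2 or 3 or without any tpt-2 9 h library. EXPA1 did not pass without Col-0 9 h replicate 2 (0.0525). Lower in tpt-2 at 9 h were EXPA10 (-1.02, limma adjusted p 0.0088), EXPA15 (-0.77, 0.0155), EXPA9 (-0.61, 0.0154) and EXPA4 (-0.44, 0.0113). EXPA15 did not pass without Col-0 9 h replicate 2 or tpt-2 9 h replicate 1 or 2 (0.0542, 0.055 and 0.0663), EXPA9 without Col-0 9 h replicate 2 or tpt-2 9 h replicate 2 (0.0525 and 0.0534), and EXPA4 with only the 6 libraries compared (0.0586). The list as a whole had a median of 0.04 at 18 h and -0.41 at 9 h, beside 0.09 and 0.07 over all genes. Over time EXPA8 was lower at 18 h in tpt-2 (-2.39, limma adjusted p 0.00588) and in Col-0 (-1.70, 0.0283, lost in 6 of 13 alternatives, 0.0102 to 0.112, among them without Col-0 18 h replicate 2 or 3 or Col-0 9 h replicate 1 or 2), and EXPA4 was higher in tpt-2 (0.85, 0.000107) and in Col-0 (0.46, 0.00592). In tpt-2 EXPA10 was also higher at 18 h than at 9 h (1.58, limma adjusted p 0.000429). EXPA11 (-1.13, limma adjusted p 0.0146) and EXPA3 (-0.49, 0.0487) were lower at 18 h in tpt-2, and EXPA3 in Col-0 (-0.90, 0.00153). The tpt-2 call was lost without tpt-2 18 h replicate 1 or tpt-2 9 h replicate 3 for EXPA11 (0.0585 and 0.0544), and in 8 of 13 alternatives for EXPA3 (0.015 to 0.155), among them without any of the 6 tpt-2 libraries.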

How the data were processed

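Poly(A) RNA was taken with poly-T beads and made into dUTP directional libraries, per the labels' protocols. The authors deposited 1 table of FPKM values for 32833 genes in 12 libraries. The submitters' processing notes name CASAVA, HISAT2 2.0.5, featureCounts 1.5.0-p3, DESeq2 1.20.0 and the build TAIR10, but their order, the annotation and the strand setting are not given in the sources used here. From that table, log2(FPKM + 1) was fitted for the 17585 genes averaging 1 FPKM or more over the 12 libraries, using limma 3.58.1 (R 4.3.3; 4 group means, 1 shared spread with a trend on level), and p-values were adjusted by Benjamini-Hochberg over all 17585 genes, with a call at an adjusted p under 0.05. Python 3.11.15, numpy 2.4.6, pandas 2.3.3, scipy 1.17.1 and matplotlib 3.10.9 did the rest. The design calls the samples biological replicates, and what they share is not stated, so p-values measure the spread between these samples.

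Low FPKM values are steps of 1 fragment, which gave the depth of each library. With it, 98.05 to 98.4% of the values of 1 to 20 fragments came out whole within 0.05, using mean annotated transcript lengths. Exact 95% intervals on fragment sums cover counting error only, since no molecular identifiers are named in the protocols. No values of replicates were equal above 0, and r between replicates was 0.969 to 0.992. Sequences and positions came from the RefSeq TAIR10.1 annotation, which held all 90 listed identifiers. On simulated data with 200 genes changed 2-fold at 9 h among 17387 genes, the fit recovered 72.0% of them with 6.49% of its calls false. The simulation gave every gene the same spread beyond counting error (dispersion 0.03) and left all other genes unchanged. In the data 22.3% of genes were called at 9 h, and the SD between replicates of the 5 ran from 0.158 to 0.599 (log2 scale). The simulated rates therefore do not carry over to the genes reported.

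The 5 members and the gene lists were chosen with earlier results of these data known. The other genes named are those of the family, TPT, the called genes of each list (at most 4 per direction by log2 fold change, and any whose value a sentence needs), and the 3 genes most correlated with each member. TATAAA and ACGTGG were added after the promoters had been read. Alternatives were another pseudocount (0.1), no filter, a filter of 5 FPKM, median-ratio scaling, quantile normalization, a replicate block, each library left out, and only the 6 libraries compared.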

Additional observations from a re-analysis of the deposited data

Results flagged for a closer look

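For 2 of the 38 tested genes in the family, gibberellin and expansin lists outside the 5 (5.26%, against 4.78% of all genes), the genotype effects at the 2 times differed by a test of the difference itself (limma, Benjamini-Hochberg adjusted p). AT1G22690, a family gene, had a tpt-2 minus Col-0 effect that was 1.54 larger at 18 h than at 9 h (log2 scale, adjusted p 0.0276, 0.0188 to 0.075 over 18 alternatives, with 6 of them not passing). RGL2, a DELLA gene, had an effect 0.98 larger at 18 h than at 9 h (adjusted p 0.00785, 0.00671 to 0.0292 over 17 alternatives, all passing): its tpt-2 libraries were above the Col-0 libraries at 18 h and below them at 9 h.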

How the results depend on the processing

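With 1 library left out, the difference between the genotype effects turned sign for GASA1 (-0.12, range -0.59 to 0.15; positive without Col-0 18 h replicate 1, Col-0 9 h replicate 2, tpt-2 18 h replicate 1, or tpt-2 9 h replicate 1 or 2) and for GASA5 (-0.26, range -0.61 to 0.14; positive without Col-0 9 h replicate 2 or tpt-2 18 h replicate 3). No other effect of the 5 genes turned sign when 1 library was left out. The GASA5 effect of -0.85 at 9 h was -0.50 without Col-0 9 h replicate 1, and that of -1.10 at 18 h was -0.71 without tpt-2 18 h replicate 3. GASA14 at 18 h (0.51) was 0.32 without Col-0 18 h replicate 3, and GASA4 at 18 h (0.07) ran from 0.01 to 0.17. In the other settings 4 effects moved by more than 1 SD between replicates, all of GASA5 with 0.1 FPKM added: -2.28 at 9 h between the genotypes, 3.09 over time in tpt-2, 2.32 over time in Col-0 and 0.77 for the difference between the effects. A filter of 5 FPKM gave no value for GASA5. The 507 genotype calls at 18 h were 335 with no filter, 293 with a replicate block and 113 to 577 with 1 library left out: 261, 113 and 114 without Col-0 18 h replicate 1, 2 and 3, and 322 and 175 without tpt-2 18 h replicate 1 and 2. The 3917 at 9 h were 2403 to 4049, with 2436 and 2403 without tpt-2 9 h replicate 1 and 2. The 841 calls of the difference were 394 with a replicate block and 254 to 1177 with 1 library left out: 291, 254 and 516 without Col-0 18 h replicate 1, 2 and 3, 534 without Col-0 9 h replicate 2, 281 and 486 without tpt-2 18 h replicate 1 and 2, and 468 and 297 without tpt-2 9 h replicate 1 and 2. The cause was not tested. Deviations of same-numbered samples from their group means had r of -0.345 to 0.135, against -0.227 to 0.348 between different numbers. Between Col-0 18 h and Col-0 9 h the same-numbered values were all positive (0.135, 0.091 and 0.105). These ranges do not settle whether the numbers pair samples. Among the other named genes a call was lost in 65 values with 1 library left out and in 26 under other settings, and gained in 1. GASA5 at 9 h rests on 5 fragments in tpt-2, which limits its ratio to the interval given.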
